A study of Mus musculus with 14 samples.

Results

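The hemoglobin chain genes Hba-a1, Hba-a2, Hbb-bs and Hbb-bt were followed through phosphorylated-ribosome and whole-tissue RNA of the mouse hypothalamus. They were chosen by symbol, and all 4 are present among the 14531 entries of the expression table. All groups were made from 10-week-old male C57BL/6N mice with no engineered allele. The NCD groups had received a control diet and the HFD groups a high-fat diet, in both cases for 3 days. The mice were killed by cervical dislocation, the hypothalamus was dissected and frozen, and 8 hypothalami were pooled for each precipitation. Whole-tissue RNA is called input. The IP fraction is RNA recovered with an antibody to the phosphorylated form of S6, a protein of the small ribosomal subunit, the phosphorylation of which rises in active neurons. The 14 libraries comprise 3 input and 3 IP libraries on NCD and 4 input and 4 IP libraries on HFD, whereas the labels speak of 4 precipitations per condition. A precipitation with a control antibody was not analysed here. Each library is a pool of animals, so p-values measure the spread between pools. Single libraries are named by group and by the index, 0 to 3, that their column carries.

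Hemoglobin is the oxygen carrier of red blood cells and is built from alpha-like and beta-like globin chains, each holding a heme group. In the adult mouse the alpha chains come from Hba-a1 and Hba-a2 and the beta chains from Hbb-bs and Hbb-bt. The genes are transcribed at very high rates in erythroid precursors. Reticulocytes, the youngest red cells in blood, have lost the nucleus but still hold globin mRNA and ribosomes, and globin mRNA has also been described in some neurons and glial cells of the rodent brain.

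The alpha genes lie on the plus strand of chromosome 11 and the beta genes on the minus strand of chromosome 7, in build GRCm38. Hba-a1 (ENSMUSG00000069919) spans chr11:32283511-32284465 and Hba-a2 (ENSMUSG00000069917) spans chr11:32296489-32297298. Hbb-bs (ENSMUSG00000052305) spans chr7:103826534-103828096 and Hbb-bt (ENSMUSG00000073940) spans chr7:103812524-103813996. Each has 3 exons in its longest GENCODE M21 transcript, and no other annotated gene overlaps these exons. The copies within a pair are close to identical in coding sequence, which bears on how reads can be divided between them. Over 429 coding bases Hba-a1 and Hba-a2 differ at 1 base (C381T, the Hba-a1 base first, counted from the A of the start codon). Over 444 coding bases Hbb-bs and Hbb-bt also differ at 1 base (C417T, the Hbb-bs base first). Both differences fall on the third position of a codon. The 60 coding bases that end at each difference are shown 5′ to 3′, with the differing base in capitals.
Hba-a1: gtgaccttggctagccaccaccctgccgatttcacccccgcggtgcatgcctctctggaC
Hba-a2: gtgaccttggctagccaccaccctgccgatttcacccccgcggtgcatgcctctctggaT
Hbb-bs: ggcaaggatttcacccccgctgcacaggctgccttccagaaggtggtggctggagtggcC
Hbb-bt: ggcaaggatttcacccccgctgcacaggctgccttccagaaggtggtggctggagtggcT

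Of the 75-base windows of the longest transcript, 62.2% in Hba-a1 and 81.0% in Hba-a2 are also found in the other alpha gene. The shares were 64.3% for Hbb-bs and 56.6% for Hbb-bt against the other beta gene, and no window of that length was shared with a gene outside the pair. An alpha and a beta gene, in contrast, were identical in 55.2% to 55.4% of aligned coding positions. Values of single copies are therefore uncertain where reads could be split between near-identical copies, whereas alpha and beta reads are told apart by sequence, and sums over a pair are given beside the copies.

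The upstream sequences are shown as background, and their part in the changes between the fractions was not tested. They are the 250 bases before the RefSeq start of the gene in GRCm38.p6, read 5′ to 3′ on the gene's strand, at chr11:32296242-32296491 for Hba-a2, chr7:103827929-103828178 for Hbb-bs and chr7:103813924-103814173 for Hbb-bt. Capitals mark matches on either strand to the motifs searched. The CCAAT box is bound by CCAAT-binding factors, the motif CACCC by Krüppel-like factors, and the motif GATAA by GATA factors, all known from globin promoters. The motif ATATAA, which resembles a known core promoter element, was added after the sequences had been read.
Hba-a2: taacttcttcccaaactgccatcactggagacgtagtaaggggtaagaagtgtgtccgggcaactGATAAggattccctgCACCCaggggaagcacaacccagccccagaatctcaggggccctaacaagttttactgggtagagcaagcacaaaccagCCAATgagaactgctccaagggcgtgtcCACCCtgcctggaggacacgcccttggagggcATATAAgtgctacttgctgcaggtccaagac
Hbb-bs: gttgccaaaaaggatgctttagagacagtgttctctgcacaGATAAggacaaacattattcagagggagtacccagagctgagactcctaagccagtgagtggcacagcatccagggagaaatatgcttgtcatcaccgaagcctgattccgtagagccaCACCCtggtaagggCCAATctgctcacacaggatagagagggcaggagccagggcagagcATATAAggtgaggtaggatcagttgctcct
Hbb-bt: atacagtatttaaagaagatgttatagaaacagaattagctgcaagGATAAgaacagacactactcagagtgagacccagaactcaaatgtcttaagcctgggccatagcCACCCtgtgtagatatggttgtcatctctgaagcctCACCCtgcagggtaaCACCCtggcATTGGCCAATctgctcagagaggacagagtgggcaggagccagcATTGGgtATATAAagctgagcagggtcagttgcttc

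The Hba-a1 sequence was 97.6% identical to that of Hba-a2, while the beta pair was 68.4% identical. All 4 genes held each of these motifs, and none held the further motif searched, ATAAAA. In Hbb-bt, 2 of the CCAAT matches lie back to back on opposite strands. Among 32851 promoters of the same length, 33.9% held the CCAAT box and 52.0% the motif CACCC. The motif GATAA was in 22.6% of them, ATATAA in 9.10% and the absent motif ATAAAA in 16.97%. The 4 motifs that the globin genes share were together in 0.466% of promoters. Because ATATAA was taken from these same sequences and the absent ATAAAA was left out, that share does not test the set. All motif hits are matches of letters and no measure of binding.

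The labelled tissue was checked first. Of 21 hypothalamic marker genes 16 were in the table, and their summed FPKM (fragments per length of transcript and per mapped fragments of the library, as deposited) was 171.5 to 246 in input and 361 to 642 in IP. The sum was led by Pmch and Sst, with means of 87.6 and 72.6 FPKM in input NCD and 231 and 185 FPKM in IP NCD. Other markers were far lower, such as Sim1 at 1.34 and 0.303 FPKM in these groups. FPKM is a level per length, so it can be compared between genes. The IP libraries were more variable than the input libraries. Between libraries of 1 group, log2(FPKM + 1) correlated with r from 0.970 to 0.981 for input and from 0.720 to 0.917 for IP. Entries listed at 0 made up 0.282% to 0.957% in input and 0.771% to 10.8% in IP, with the highest shares in IP NCD index 0 and IP HFD index 0. The share of mitochondrially encoded genes in all FPKM was 23.5% to 39.1% for input libraries and 2.66% to 15.6% for IP libraries. Read numbers are not given in the table, so the depth of each library is unknown.

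All 4 globin genes were higher in every IP library than in every input library. Hbb-bs, the major of the adult beta chain genes in this table, was at 5.88, 5.32 and 5.52 FPKM in the input NCD libraries of index 0 to 2. In IP NCD its levels were 167, 105 and 229.6 FPKM. In input HFD, index 0 to 3, they were 7.28, 11.5, 6.13 and 6.11 FPKM, and in IP HFD 220.3, 201, 73.4 and 166 FPKM. The lowest IP library, IP HFD index 2, thus stood above the highest input library, input HFD index 1. Relative to all 14519 symbols of a library, Hbb-bs ranked 4251 to 7062 by level in input and 255 to 946 in IP.

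Hba-a1, an alpha chain gene, was at 2.04, 3.17 and 3.38 FPKM in input NCD and at 41.2, 55.1 and 309 FPKM in IP NCD. On HFD it was at 7.42, 7.31, 4.62 and 6.16 FPKM in input and at 155, 91.9, 47.4 and 61.3 FPKM in IP. IP NCD index 2 was the highest library of Hba-a1 and carried 7.48 times the level of the lowest IP NCD library. Input and IP did not overlap on either diet.

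Hba-a2, the other alpha chain gene, was at 0.746, 3.96 and 2.85 FPKM in input NCD and at 35.8, 28.2 and 80.9 FPKM in IP NCD. On HFD the levels were 1.33, 2.80, 2.34 and 0.681 FPKM in input and 49.99, 30.5, 12.3 and 23.5 FPKM in IP. Its input values spread 5.82 times between the lowest and the highest library, and the lowest IP library still lay above all 7 of them.

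Hbb-bt, the other adult beta chain gene, was the lowest or next to lowest of the 4 genes in every library. It was at 1.82, 1.20 and 0.791 FPKM in input NCD and at 19.3, 25.6 and 49.8 FPKM in IP NCD. On HFD it was at 2.18, 2.02, 2.07 and 0.823 FPKM in input and at 39.2, 34.7, 12.8 and 34.0 FPKM in IP. IP HFD index 2 was the lowest of the 7 IP libraries for Hba-a2, Hbb-bs and Hbb-bt, and IP NCD index 2 was the highest for all 4 genes.

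**Figure D1:**
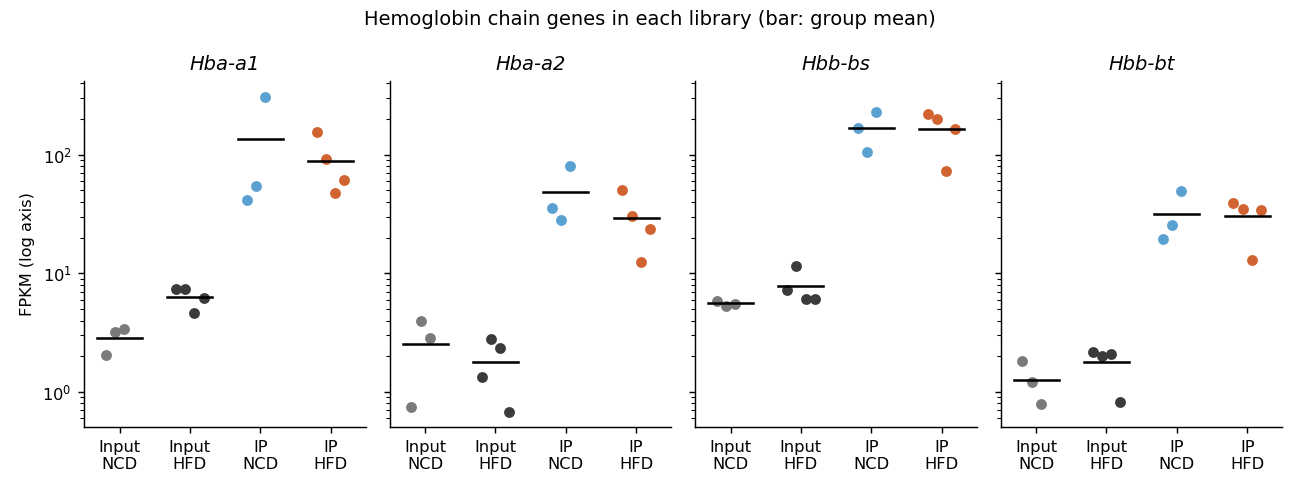
FPKM (log axis) of the 4 hemoglobin chain genes in each of the 14 libraries, by fraction and diet; points are libraries, ordered by index, and bars are group means of 3 (NCD) or 4 (HFD) libraries. In each gene the 7 IP libraries lie above the 7 input libraries, and the libraries of the 2 diets overlap within the IP fraction.

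The order of levels was similar in both fractions. Hbb-bs was above Hba-a2 and Hbb-bt in 14 of 14 libraries and above Hba-a1 in 11 of 14. Hba-a1 was above Hba-a2 in 13 of 14 and above Hbb-bt in 14 of 14. Hba-a2 and Hbb-bt were not ordered, with Hba-a2 higher in 8 libraries and Hbb-bt in 6. In IP NCD the mean FPKM was 167 ± 62.3 for Hbb-bs, 135 ± 150.5 for Hba-a1, 48.3 ± 28.5 for Hba-a2 and 31.6 ± 16.1 for Hbb-bt (SD, n = 3). In IP HFD it was 165 ± 65.2, 88.8 ± 47.6, 29.1 ± 15.8 and 30.2 ± 11.8 in the same order of genes (SD, n = 4). In both groups the SDs of Hbb-bs and Hba-a1 overlap, as do those of Hba-a2 and Hbb-bt.

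Which mRNAs were relatively richer in the phospho-S6 precipitate was asked by comparing IP with input. With limma on log2(FPKM + 1), 4 of 4 globin genes were higher in IP over both diets, where 23.4% of the 12478 tested genes were higher at an adjusted p under 0.05. All 4 were also among the 13.4% of tested genes whose 7 IP libraries lay above the 7 input libraries. Hbb-bs was higher by 4.39 ± 0.25 on the log2 scale (± SE, Benjamini-Hochberg adjusted p = 3.5e-09), the change ranked 12 of 12478. Hba-a1 was higher by 4.02 ± 0.38 (adjusted p = 7.2e-07, ranked 19). Hbb-bt was higher by 3.59 ± 0.29 (adjusted p = 1.4e-07, ranked 49) and Hba-a2 by 3.56 ± 0.35 (adjusted p = 1.2e-06, ranked 51). The 4.02 of Hba-a1 corresponds to 16.2 times the level on the scale of FPKM + 1, and the added 1 understates the change of genes whose input is near 1 FPKM, as in Hba-a2 and Hbb-bt. In bulk RNA, how many cells of a type contributed to a fraction and how much RNA each contributed cannot be told apart.

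The exact permutation test of single genes, with libraries exchanged within each diet, gave p = 0.00143 for each of the 4, the smallest p that 1400 arrangements can give. On a linear scale, the mean IP over the mean input FPKM on NCD was 47.1 for Hba-a1, 30.01 for Hbb-bs, 24.8 for Hbb-bt and 19.2 for Hba-a2. The value of Hba-a1 and its place in this order rested on IP NCD index 2. Without that library the ratios on NCD were 16.8, 24.4, 17.7 and 12.7 in the same order of genes. On HFD, with all libraries, they were 13.9, 21.3, 17.02 and 16.3. The lowest IP library over the highest input library of the same diet ranged from 4.41 (Hba-a2, HFD) to 17.8 (Hbb-bs, NCD).

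Each diet alone gave the same 4 calls. On NCD, where 15.7% of tested genes were higher and 21.8% had IP libraries wholly above the input libraries, Hbb-bs was higher by 4.61 ± 0.38, Hba-a1 by 4.56 ± 0.58, Hba-a2 by 3.79 ± 0.54 and Hbb-bt by 3.76 ± 0.44 (log2 ± SE, limma adjusted p from 7.0e-07 to 0.00011). Without IP NCD index 2 the change of Hba-a1 on NCD was 3.67 (limma adjusted p = 2.3e-05). The exact permutation test on NCD gave p = 0.1 for each, the smallest p that 3 against 3 libraries allow. On HFD, where 19.0% were higher and 22.1% did not overlap in that direction, the changes were 4.17 ± 0.33 for Hbb-bs, 3.48 ± 0.50 for Hba-a1, 3.41 ± 0.38 for Hbb-bt and 3.34 ± 0.46 for Hba-a2 (limma adjusted p from 2.4e-07 to 8.6e-05), with exact permutation p = 0.0286 for each. With the near-identical copies summed, the alpha pair was higher by 4.03 ± 0.36 and the beta pair by 4.37 ± 0.25 over both diets (limma adjusted p = 3.5e-07 and 3.3e-09).

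**Figure D2:**
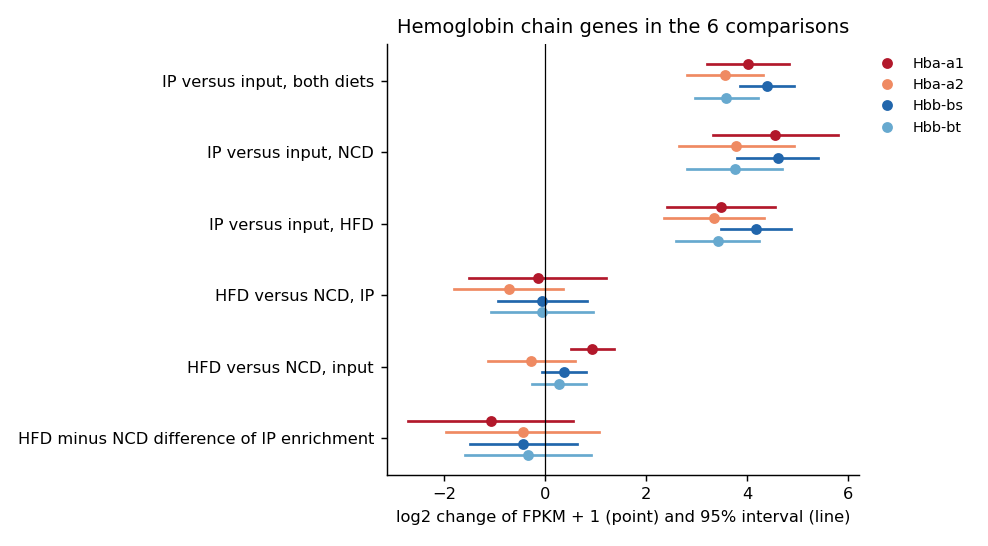
Log2 change of FPKM + 1 (x axis) of each hemoglobin chain gene in the 6 comparisons, with points for the limma estimate and lines for its 95% interval. The intervals of the 3 comparisons of IP with input lie above 2, and in the other comparisons only Hba-a1 in input has an interval that leaves out 0.

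Leaving out IP NCD index 2, the library with the highest globin levels, left Hbb-bs higher by 4.26, Hba-a1 by 3.58, Hbb-bt by 3.40 and Hba-a2 by 3.34 over both diets. Without the IP libraries of index 0, which had the most entries at 0, the changes were 4.28, 4.14, 3.65 and 3.48 in that order of genes. Rescaling each library to its summed FPKM without mitochondrially encoded genes moved the median change of all genes by -0.44, from 0.00 to -0.44, and the share of calls that were higher from 53.4% to 26.5%. On that scale the globin changes were 3.87 for Hbb-bs, 3.52 for Hba-a1, 3.16 for Hbb-bt and 3.11 for Hba-a2. All were past the threshold in each of these fits.

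In the authors' deposited table, each IP column was divided by the input column of the same diet and index. The authors' deposited table gives a ratio above 5 for each of the 4 genes in each of the 7 pairs. For Hbb-bs, the ratios of the authors' deposited table ran from 19.7 to 41.6 on NCD and from 11.97 to 30.3 on HFD. For Hba-a1 the authors' deposited table gives 17.4 to 91.3 on NCD and 9.95 to 20.8 on HFD. For Hba-a2 the ratios of the authors' deposited table were 7.11 to 47.9 and 5.27 to 37.7, and for Hbb-bt 10.6 to 63.0 and 6.20 to 41.4. The pair HFD index 2 was the lowest of the HFD pairs for Hba-a2, Hbb-bs and Hbb-bt, whereas Hba-a1 was lowest in the pair HFD index 3.

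**Figure D3:**
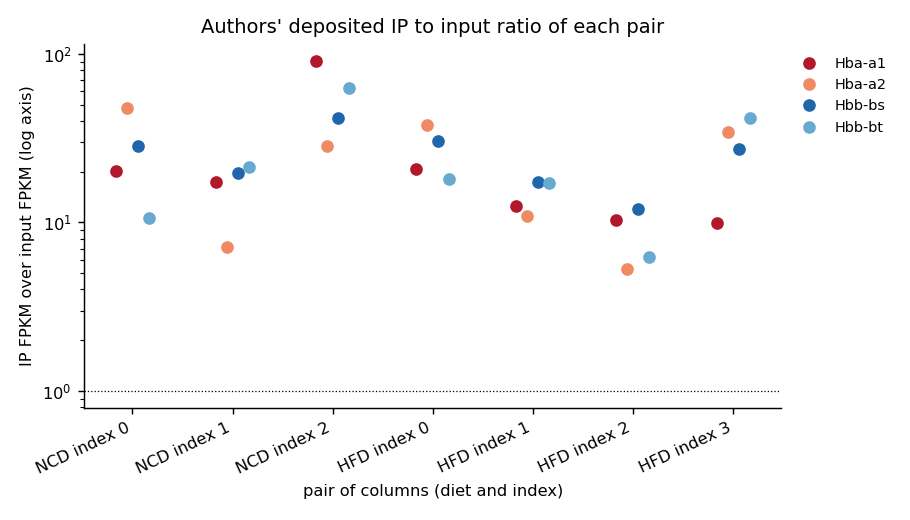
The authors' deposited ratio of IP to input FPKM (log axis) for each of the 7 pairs of columns, with 1 point per hemoglobin chain gene; the dotted line marks equal levels. All 28 points lie above 5, with the highest at 91.3 for Hba-a1 in NCD index 2.

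The proportions of the 4 genes to each other overlapped between the fractions, unlike their levels. Hbb-bs over Hbb-bt was 2.96 to 7.43 in input and 4.11 to 8.67 in IP. Hba-a1 over Hba-a2 was 0.7998 to 9.04 in input and 1.15 to 3.84 in IP. The summed alpha over the summed beta FPKM was 0.363 to 1.09 in input and 0.412 to 1.39 in IP, so alpha and beta mRNA stood within a factor of 3 of each other in all libraries. The 4 genes together reached 10.5 to 23.6 FPKM in input and 146 to 669 FPKM in IP, which is 0.00267% to 0.00671% and 0.0362% to 0.164% of the FPKM of a library. As a description, log2(FPKM + 1) of pairs of members correlated with r from 0.944 to 0.986 over the 14 libraries, which share the contrast of the fractions. After the group means were subtracted r was 0.635 to 0.765, over 14 libraries that share their scaling, and near-identical copies share reads.

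Short transcripts were higher in IP as a class, and the globin transcripts are short. The longest annotated transcripts of Hba-a1, Hba-a2, Hbb-bs and Hbb-bt measure 699, 554, 628 and 703 bases. Among 1030 tested genes of up to 1000 bases the median log2 change in IP over both diets was 1.17, and 57.4% were higher. Among 782 genes above 8000 bases the median was -0.62, and 6.14% were higher. Within the class of up to 1000 bases Hbb-bs ranked 11, Hba-a1 15, Hbb-bt 35 and Hba-a2 37 by change, all above the class's 95th percentile of 3.41. The part of transcript length in the globin changes was not tested.

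**Figure D4:**
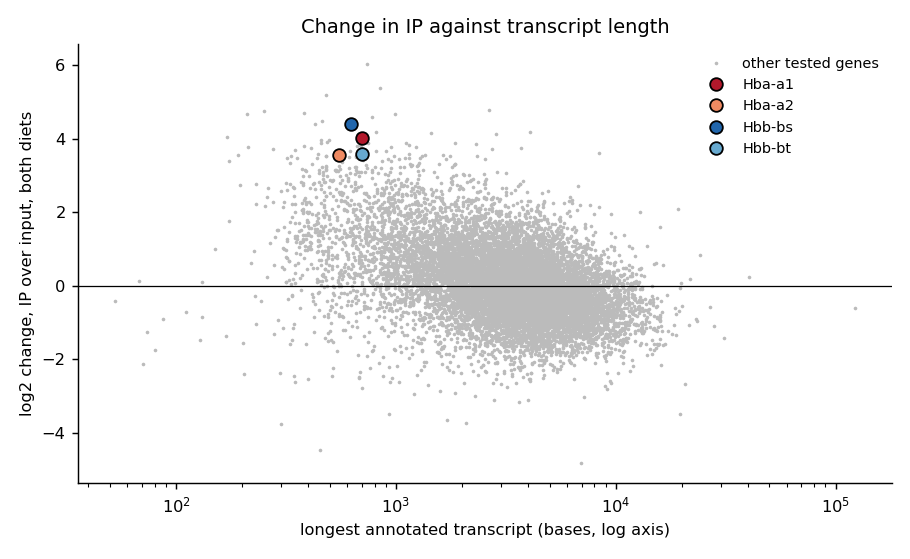
Log2 change in IP over both diets (y axis) against the longest annotated transcript (bases, log axis) of all tested genes with a length, with the 4 hemoglobin chain genes marked. The globin genes lie at 554 to 703 bases and at changes of 3.56 to 4.39, above the 95th percentile of 3.41 of genes of up to 1000 bases.

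In the order of changes Hbb-bt and Hba-a2 stood close to each other, at ranks 49 and 51. The other genes named here, next to the globins in that order, had other functions. Around Hbb-bs were the small nucleolar RNA host genes Snhg8 (4.58) and Snhg6 (4.18), the ribosomal protein genes Rps29 (4.47), Rps24 (4.19) and Rps28 (4.15), and Epb41l4aos (4.40). Around Hba-a1 were Rps27 (4.13), Rpl35a (4.12) and Rplp1 (3.95), also ribosomal protein genes. Around Hbb-bt and Hba-a2 were Tln1 (3.59), encoding the focal adhesion protein talin, Ost4 (3.59), encoding an oligosaccharyltransferase subunit, and Gng3 (3.55), encoding a G protein gamma subunit. Each of these changes in log2(FPKM + 1) was past the threshold.

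The genes whose levels most resembled the mean globin level over the 14 libraries were Atp5e (r = 0.992), Ndufa4 (0.990), Uqcrh (0.988), Rnf6 (0.987) and Cox7a2l (0.987). With group means subtracted the order was different, and the most alike genes included Sipa1l1 (r = 0.958), Pcgf5 (0.930), Tmem245 (0.927) and Lars2 (0.926). These correlations describe 14 libraries that share scaling and, in the first case, the contrast of fractions. Alas2, the first enzyme of heme synthesis in red cell precursors, had r = 0.271 over the 14 libraries and r = 0.793 with group means subtracted.

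Whether genes of the red cell, of other globins and of heme and iron metabolism followed the hemoglobin genes was read from lists, in IP against input over both diets. Of 12 other globin genes 2 were in the table. Cygb, the cytoglobin gene of fibroblast-like and some nerve cells, rose by 0.88 ± 0.19 (limma adjusted p = 0.0019), a call lost on the scale without mitochondrially encoded genes (0.36, adjusted p = 0.13). Ngb, the neuronal globin gene, differed by 0.03 ± 0.44 (adjusted p = 0.96). Its levels were 0.814, 1.73 and 0.445 FPKM in IP NCD and 16.7, 1.52, 1.05 and 11.7 FPKM in IP HFD, so single libraries spread widely.

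Of 18 genes with little expression outside the red cell lineage, 2 were in the table and 1 was tested. That gene, Alas2, differed between IP and input by 0.29 ± 0.64 (limma adjusted p = 0.74), against changes of 3.56 to 4.39 in the globin genes. Its input levels were 1.14 to 4.24 FPKM. In IP NCD it was at 4.32, 0.0784 and 49.3 FPKM, and in IP HFD at 6.27, 2.04, 0.572 and 1.05 FPKM. The value of 49.3 came from IP NCD index 2, the library that was also highest in all 4 globin genes, whereas in IP NCD index 1 Alas2 was at 0.0784 FPKM with Hbb-bs at 105 FPKM. Without IP NCD index 2 the Alas2 difference was -0.44 (adjusted p = 0.43). Epor, the erythropoietin receptor gene, was listed at 0 in 3 of 7 IP libraries. Its levels were 1.63, 0 and 2.65 FPKM in IP NCD and 0, 0, 0.165 and 5.14 FPKM in IP HFD, against 0.0636 to 0.640 FPKM in input. The summed level of these 2 genes was 1.51 to 4.47 FPKM in input and 0.0784 to 51.9 FPKM in IP, and the other 16 were not analysed here. The part of red cells in the globin changes was not tested.

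Of 11 red cell genes that brain cells also express, 10 were tested, of which 1 rose and 2 fell, with a median of -0.28. Over all tested genes the median was 0.00, with 23.4% higher and 20.5% lower. Ank1, encoding the membrane skeleton protein ankyrin-1, rose by 2.12 ± 0.22 (limma adjusted p = 1.7e-06). Car2, encoding carbonic anhydrase 2, fell by 1.18 ± 0.31 (adjusted p = 0.0066). Fech, which encodes the enzyme that inserts iron in the last step of heme synthesis, fell by 0.89 ± 0.25 (adjusted p = 0.0099). On the scale without mitochondrially encoded genes 1 rose and 6 fell, with a median of -0.74, where that of all tested genes was -0.44. Among transcription factors of globin genes 5 of 11 were tested, and Lmo2, a bridging protein of the erythroid complex, rose by 1.16 ± 0.31 (adjusted p = 0.0070), a call lost on that scale (0.67, adjusted p = 0.069). Tal1, the partner of Lmo2 in that complex, was at 5.50, 0.0248 and 15.6 FPKM in IP NCD and at 0, 0.464, 0 and 0.186 FPKM in IP HFD.

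Of 11 heme synthesis genes 10 were tested, and Fech was the 1 that changed, with a list median of -0.08. On the scale without mitochondrially encoded genes 4 of the 10 fell, with a median of -0.53, where that of all tested genes was -0.44. Of 15 genes of heme and hemoglobin clearance and sensing 9 were tested and 2 rose, with a median of 0.24. Hmox2, the constitutive heme oxygenase gene, rose by 0.87 ± 0.18 (limma adjusted p = 0.0011), and Blvra, encoding a biliverdin reductase, by 0.84 ± 0.31 (adjusted p = 0.039). Both calls were lost on the scale without mitochondrially encoded genes, with 0.32 and 0.43 (adjusted p = 0.15 and 0.27), where 3 other genes of the list fell. The list median on that scale was -0.16, against -0.44 over all tested genes. The Blvra call was also lost without IP NCD index 2 (0.79, adjusted p = 0.064). Of 13 iron handling genes 10 were tested, with 1 that rose and 3 that fell. The ferritin light chain gene Ftl1 rose by 0.74 ± 0.22 (adjusted p = 0.012), a call lost on that scale (adjusted p = 0.46), where 6 of the 10 fell. The median of the iron handling genes there was -0.86, against -0.44 over all tested genes. The ferritin heavy chain gene Fth1 fell by 0.88 ± 0.20 (adjusted p = 0.0020), the iron sensor gene Ireb2 by 1.27 ± 0.32 (adjusted p = 0.0049) and the iron transporter gene Slc11a2 by 0.57 ± 0.17 (adjusted p = 0.013).

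Markers of cells near blood were read beside the globin genes. Of 18 endothelial markers 5 were tested and 0 passed the threshold in limma, with 0 at an unadjusted p under 0.05 and a median of -0.45. On the scale without mitochondrially encoded genes 2 of the 5 fell, with a median of -0.71 against -0.44 over all tested genes. Without the IP libraries of index 0, 1 rose. The 8 endothelial markers in the table summed to 13.5 to 23.7 FPKM in input and 8.29 to 31.6 FPKM in IP, and Tek, Ly6c1, Ly6a, Abcb1a and Esam were each listed at 0 in at least 1 IP library of each diet. The smallest p among them belonged to Flt1, a vascular growth factor receptor gene (-0.62 ± 0.32, adjusted p = 0.13), and Ly6a (-0.62 ± 0.34, adjusted p = 0.16). Of 11 pericyte and smooth muscle markers 2 were tested, and the pericyte gene Rgs5 fell by 2.56 ± 0.52 (limma adjusted p = 0.00092). Rgs5 was at 26.0 to 36.3 FPKM in input and at 0.775 to 4.61 FPKM in 6 IP libraries, with 43.4 FPKM in IP NCD index 0. The pericyte list summed to 30.3 to 42.5 FPKM in input and to 1.62 to 51.3 FPKM in IP.

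Of 16 white cell and platelet markers 2 were tested, and the platelet integrin gene Itga2b rose by 1.54 ± 0.40 (limma adjusted p = 0.0056), from 0 to 0.849 FPKM in input to 0.392 to 9.86 FPKM in IP. The 3 markers of that list in the table summed to 1.60 to 4.56 FPKM in input and to 3.04 to 10.8 FPKM in IP, and Ptprc and Lyz2 were each listed at 0 in at least 1 IP library. Of 12 choroid plexus markers 10 were tested and 9 rose, with a median of 1.56. Over all tested genes 23.4% were higher, with a median of 0.00. The choroid plexus markers were led by Ttr, the transthyretin gene, which rose by 3.29 ± 0.43 (adjusted p = 1.9e-05), followed by Calml4 (2.12 ± 0.36), Folr1 (2.03 ± 0.45) and Kcne2 (1.82 ± 0.26). The 10 genes summed to 101.9 to 257 FPKM in input and to 377 to 1820 FPKM in IP, and 7 rose on the scale without mitochondrially encoded genes. The list median on that scale was 1.21, against -0.44 over all tested genes. Of 7 meningeal fibroblast markers 4 were tested, and Igf2, an insulin-like growth factor gene, rose by 1.50 ± 0.34 (adjusted p = 0.0021). The 5 in the table summed to 15.6 to 49.8 FPKM in input and 36.9 to 311 FPKM in IP.

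Among genes of dopamine neurons, a cell class in which globin mRNA has been described, 3 of 4 rose with a median of 1.31. These were the dopamine transporter gene Slc6a3 (1.42 ± 0.31), Ddc (1.34 ± 0.37) and Th (1.28 ± 0.44), with limma adjusted p of 0.0015, 0.0083 and 0.028. Over all tested genes 23.4% were higher, with a median of 0.00. On the scale without mitochondrially encoded genes 1 of the 4 dopamine neuron genes rose. The list median there was 0.83, against -0.44 over all tested genes. Without IP NCD index 2 there were 2 that rose. The list summed to 20.2 to 44.4 FPKM in input and 41.0 to 154 FPKM in IP. Of 15 tested hypothalamic markers 6 rose, with a median of 0.92, the changes led by Pomc (1.71 ± 0.40), Hcrt (1.44 ± 0.34), Sst (1.32 ± 0.22) and Crh (1.29 ± 0.50). On the scale without mitochondrially encoded genes 3 rose and 1 fell, and without the IP libraries of index 0 10 rose and 1 fell. The limma call of Crh (adjusted p = 0.048) was lost on the scale without mitochondrially encoded genes (adjusted p = 0.056). It was also lost without IP NCD index 2 (adjusted p = 0.12). Pomc differed by 2.80 on HFD (limma adjusted p = 0.00074) and by 0.61 on NCD (adjusted p = 0.49). Crh differed by 2.23 on NCD (adjusted p = 0.039) and by 0.34 on HFD (adjusted p = 0.72). Avp, Crh and Fezf1 were listed at 0 in at least 1 IP library of each diet. The part that the cell types of these lists have in the globin changes was not tested.

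Smaller lists moved with single libraries as well. Without IP NCD index 2, 2 of 5 transcription factor genes and 2 of 4 meningeal markers rose, 2 of 10 red cell genes that brain cells also express rose and 2 fell, and of the 9 clearance genes 1 rose and 1 fell. With both index 0 IP libraries left out, 3 clearance genes rose and 1 fell, 2 of 2 pericyte markers fell, 2 of 4 dopamine neuron genes rose, and of the 10 heme synthesis genes 1 rose and 1 fell. The 4 globin genes were past the threshold in both of these fits. The median change of all tested genes was -0.01 without IP NCD index 2 and 0.02 without the IP libraries of index 0.

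**Figure D5:**
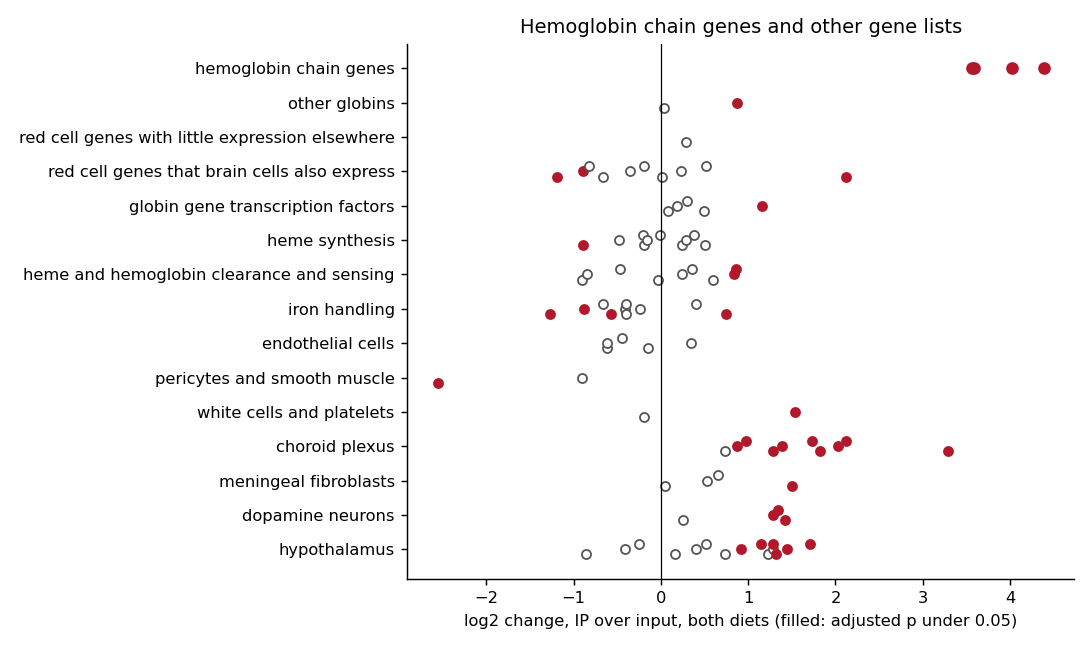
Log2 change in IP over both diets (x axis) of the tested genes of each list (rows), with filled points for an adjusted p under 0.05 in limma and open points for the others. The 4 hemoglobin chain genes lie at 3.56 to 4.39, to the right of all genes of the other lists, of which Ttr is highest at 3.29.

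The high-fat diet was compared with the control diet within the IP fraction. The globin genes did not pass the threshold (limma, 0 of 4 at an unadjusted p under 0.05), and 0% of 12478 tested genes did, with 713 genes, or 5.71%, at an unadjusted p under 0.05. Hba-a2 differed by -0.72 ± 0.49 (adjusted p = 0.84), with a 95% interval from -1.81 to 0.36. Hba-a1 differed by -0.15 ± 0.62 (interval -1.51 to 1.21), Hbb-bs by -0.06 ± 0.40 (-0.94 to 0.82) and Hbb-bt by -0.06 ± 0.46 (-1.07 to 0.95), with adjusted p of 0.98, 0.98 and 0.99. For Hbb-bs the interval runs from 0.520 to 1.77 times the NCD level, on the scale of FPKM + 1. The IP libraries of the diets overlapped in all 4 genes. For 3 of the 4 genes the sign rested on single libraries. Without IP NCD index 2 the difference was 0.74 for Hba-a1, 0.20 for Hbb-bs and 0.31 for Hbb-bt, and without IP HFD index 2 it was 0.10, 0.29 and 0.29. Hba-a2 stayed lower on HFD with each library left out in turn, at -1.03 to -0.28, and passed the threshold in none of these fits. Without the IP libraries of index 0 Hba-a1 differed by -1.01 and Hba-a2 by -1.17 (adjusted p = 0.78 and 0.77).

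In input, Hba-a1 was the globin gene with the clearest separation of the diets. Its 4 HFD libraries, at 4.62 to 7.42 FPKM, lay above the 3 NCD libraries, at 2.04 to 3.38 FPKM. The difference was 0.93 ± 0.19 on the log2 scale (interval 0.51 to 1.36). It did not pass the threshold over all genes (adjusted p = 0.84), and 0% of tested genes did, with 714 genes, or 5.72%, at an unadjusted p under 0.05. The exact permutation test of this gene gave p = 0.0286, the smallest p that 3 against 4 libraries allow. Hbb-bs also had all HFD libraries above all NCD libraries, at 6.11 to 11.5 against 5.32 to 5.88 FPKM, with a difference of 0.37 ± 0.19 (interval -0.06 to 0.81, limma adjusted p = 0.86, exact permutation p = 0.114). Among all tested genes 3.05% had HFD libraries wholly above the NCD libraries in input.

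Hbb-bt differed in input by 0.28 ± 0.24 (interval -0.26 to 0.82, limma adjusted p = 0.95) and Hba-a2 by -0.28 ± 0.38 (-1.14 to 0.59, adjusted p = 0.97), with overlapping diets in both. The estimates of the near-identical alpha copies had opposite signs in input, but that of Hba-a2 turned to 0.035 without input NCD index 1. Hba-a1 over Hba-a2 was 0.7998 to 2.74 in input NCD and 1.97 to 9.04 in input HFD. Their sum was 2.79 to 7.13 FPKM on NCD and 6.84 to 10.1 FPKM on HFD, so that the diets overlapped. The summed alpha copies differed by 0.58 ± 0.25 and the summed beta copies by 0.39 ± 0.19 (limma adjusted p = 0.84 for both).

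Whether the IP enrichment differed between the diets was tested as an interaction. The HFD minus NCD difference of the log2 change was -1.08 ± 0.77 for Hba-a1, -0.45 ± 0.71 for Hba-a2, -0.43 ± 0.50 for Hbb-bs and -0.34 ± 0.59 for Hbb-bt. Their 95% intervals all held 0, and that of Hba-a1 ran from -2.72 to 0.55. The limma adjusted p was 0.82 to 0.93, and 0.00801% of tested genes, 1 gene model (Gm17122, named after its value was seen), passed the threshold. At an unadjusted p under 0.05 there were 6.76%. Exact permutation of the diets within fractions gave p of 0.251 for Hba-a1, 0.590 for Hba-a2, 0.439 for Hbb-bs and 0.561 for Hbb-bt. Without IP NCD index 2 the Hba-a1 value was -0.19. The p-values of the authors' deposited table for the ratios of HFD against NCD pairs were 0.346, 0.710, 0.348 and 0.581 for Hba-a1, Hba-a2, Hbb-bs and Hbb-bt. The log2 of the mean ratio in the authors' deposited table was -1.68, -0.33, -0.46 and -0.61 in that order, and 0 of the 4 genes were marked as significant there.

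Of the tested genes of the red cell, heme, iron and cell type lists, 0 passed the threshold in either diet comparison or in the interaction (limma). The median diet difference of the 10 heme synthesis genes was -0.15 in IP and 0.04 in input, and that of the 10 iron handling genes 0.02 and 0.01. For Alas2 the difference was -1.19 ± 1.09 in IP (SE, limma adjusted p = 0.88) and 0.32 ± 0.27 in input (adjusted p = 0.95). The IP value includes the 49.3 FPKM of IP NCD index 2, where the other IP NCD libraries were at 4.32 and 0.0784 FPKM. Over all tested genes the medians were -0.02 and -0.01.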

How the data were processed

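RNA of input and phospho-S6 IP fractions was pre-amplified from poly(T) together with random priming, and libraries were made with Nextera XT, per the labels' protocols; this kit does not mark strand. The authors deposited FPKM, which the table calls normalized; how libraries were scaled to each other is not given in the sources used here. The genome build is GRCm38.p6 and the tools named are Cuffdiff, Cufflinks 2.2.1, HISAT2 2.1.0 and StringTie 1.3.4d, with no order, per the submitters' processing notes. The authors also deposited a ratio of IP to input per pair, a p-value and a log2 of mean ratios; 96371 of 96371 ratios checked were quotients of the same-index columns (relative tolerance 0.001).

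Columns carry an index and not the label's replicate number, so they were assigned to groups only. Symbols with several entries were represented by the highest mean. A mean FPKM of 1 or more was required, which left 12478 genes, all 4 globin genes included, and these were fitted as log2(FPKM + 1) with limma 3.58.1 in R 4.3.3 (trended empirical Bayes, two-sided). P-values were Benjamini-Hochberg adjusted over all of them, with a threshold of 0.05. IP against input and the interaction used 1 fit of 4 group means over 14 libraries, and the diets were compared within each fraction. The fit was tested on simulated data. The members and lists were chosen with earlier results of these data known. Named genes were the 4 members and, per list, up to 4 past the threshold with the largest change, or 2 with the smallest p. Likeness and neighbours were the 5 highest correlations and the 3 ranks on either side, without gene models lacking a usual symbol, and not every gene so chosen is reported here. Alternatives were other pseudocounts, filters and scalings, weights, summed copies, a pair block and left-out libraries. List counts under other scalings and without 1 or more IP libraries, and ratios of means with libraries left out, were added after seeing the data. Depth is unknown, so no counting intervals are given.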

Additional observations from a re-analysis of the deposited data

Results flagged for a closer look

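Among the 8 sets of 4 HFD libraries examined, formed by 4 genes and both fractions, 1 held a library far from the others. For Hbb-bt in input HFD, index 3 was at 0.823 FPKM while the others were at 2.18, 2.02 and 2.07 FPKM. Its gap to the nearest library was 0.885 of the range, above Dixon's 95% critical value for 4 samples. Chance flags about 1 in 20 such sets. Hba-a2 and Hbb-bs were also at their lowest of the 4 input HFD libraries there, at 0.681 and 6.11 FPKM, and the latter lay close to the 6.13 FPKM of index 2. Hba-a1, at 6.16 FPKM, was not at its lowest in that library.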

How the results depend on the processing

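In each of the 3 comparisons of IP with input, the 4 globin genes kept their direction and an adjusted p under 0.05 in all limma alternatives run. Without 1 library at a time their changes over both diets ran from 3.34 (Hba-a2) to 4.56 (Hbb-bs), and under the other alternatives from 3.11 to 4.57. The exception is the exact permutation test on NCD, which cannot go below p = 0.1 (Hba-a1 4.56, Hba-a2 3.79, Hbb-bs 4.61 and Hbb-bt 3.76). The exact permutation test gave p = 0.0286 for Hba-a1 in input between the diets (0.93), where the limma adjusted p was 0.84. Between the diets in IP the sign turned for Hbb-bt under quantile normalization (0.030) and for Hbb-bs and Hbb-bt with array weights (0.24 and 0.018), and in input for Hba-a2 when its value was replaced by the alpha sum (0.58). Leaving out 1 library at a time gave ranges in IP of -0.70 to 0.74 for Hba-a1, -0.36 to 0.29 for Hbb-bs and -0.35 to 0.31 for Hbb-bt. In input the range was -0.72 to 0.035 for Hba-a2, with the sign turned without input NCD index 1. For the interaction of Hbb-bt it was -0.63 to 0.036. None of these diet values passed the adjusted threshold, and the cause was not tested.

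Counts over all genes moved as follows. IP against input on NCD called 3314 genes, 2032 with only the libraries of that diet, 5007 when both index 0 IP libraries were dropped, and 2150 (without input NCD index 1) to 3989 with 1 library left out. Diet in IP called 0, 1 with array weights and 75 when all 14 libraries were fitted together, and diet in input 0 to 1 with 1 library left out (1 without input HFD index 0). The interaction called 1, 0 with array weights, 12 with both IP libraries of index 0 left out, and 1 to 128 with 1 left out, namely 128 without IP NCD index 1 and 7 without IP NCD index 0. The share of calls that were higher fell on the scale without mitochondrially encoded genes from 59.2% to 27.5% on NCD and from 56.6% to 27.0% on HFD, and with quantile normalization to 44.0% and 45.2%.

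Same-index IP and input columns did not deviate together (correlations of deviations from group means of -0.00 to 0.06 over genes). Same-index libraries of the 2 diets had -0.03 to 0.04 in IP and 0.12, 0.05 and 0.11 in input for index 0, 1 and 2. Not every pair was above 0.1 in any of these, so the index was not taken to pair libraries. The authors' deposited ratios do divide columns of the same index, and low correlations do not show that such columns come from separate pools. The exact permutation tests exchanged libraries without regard to such pairs. With the replicate block the counts were 5170, 2855 and 3770 for IP against input over both diets, NCD and HFD, against 5478, 3314 and 4194 without it. It gave 0 calls for the diets in either fraction and 1 for the interaction, and the globin changes in IP over both diets were 4.02, 3.56, 4.39 and 3.59 for Hba-a1, Hba-a2, Hbb-bs and Hbb-bt with and without it. Depth is unknown, and single copies of near-identical genes carry the added error of read assignment.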
